A study of Mus musculus with 4 samples.

Results

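The immediate early genes described here are the EGR factors Egr1, Egr2 and Egr3, the orphan nuclear receptors Nr4a1, Nr4a2 and Nr4a3, the early response genes Ier2 and Ier3, and the transcription factor genes Myc and Npas4. They were taken by symbol from a count table of 27179 genes, which holds all 10. Of these, 8 had a count in at least 1 library and 7 had an average level of 1 CPM (counts scaled to a common library size) or more, the level from which genes were tested. The genes were chosen with earlier values of the same contrast known, so their DCA and vehicle values are given as a description, and any count of them that passed a test is given only beside that of all genes.

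Group 2 innate lymphoid cells (ILC2s), lymphocytes of tissues that make type 2 cytokines and carry no antigen receptor, were isolated as CD45.2+Lin-CD127+KLRG1+ cells from the large intestine of C57BL/6 mice and expanded for 5 days with IL-33, IL-25, IL-7 and IL-2 at 10 ng/mL each. They then received vehicle (2 libraries) or 100 μM deoxycholic acid (DCA, 2 libraries), a secondary bile acid made by gut bacteria. Treatment lasted 16 hours according to the deposited design text and 24 hours according to the methods of the study. All libraries therefore come from cells expanded with cytokines, and no source used here says whether they came from separate cultures or mice, so the spread between them may be technical.

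Immediate early genes are transcribed within minutes of a stimulus from signaling pathways that are already in place, mainly MAP kinases acting on SRF with ETS factors, and CREB activated by calcium and cAMP. Their mRNAs are short lived, so their level follows the recent signaling state of a cell. In lymphocytes, EGR factors and NR4A receptors are induced by antigen receptor and calcium signals, and both families can restrain activation, whereas MYC drives growth and ribosome production.

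Promoters of the EGR, NR4A and NPAS4 genes carry the binding sequences through which these signals act, and 3 are shown so that the letters can be read beside the levels, with that of Fos, the most studied immediate early gene. RefSeq promoter windows on GRCm38.p6 were matched for 6 of the 10 genes (Egr2, Nr4a1, Nr4a2, Nr4a3, Ier3 and Npas4). The windows printed for Egr2 (chr10:67537619-67537868, plus strand), Nr4a1 (chr15:101266596-101266845, plus strand) and Fos (chr12:85473640-85473889, plus strand) hold the 250 bases before a start site and no GENCODE exon. The RefSeq window of Npas4 lies within a GENCODE exon, so only 30 of its bases are given (chr19:4990128-4990157, minus strand). Capitals mark a CArG box (CC, 6 bases of A or T, then GG, bound by SRF), the CRE core TGACG or its reverse complement CGTCA (CREB and ATF factors), the EGR site GCGNGGGCG and the ETS site CCGGAA, each searched on both strands.
Egr2: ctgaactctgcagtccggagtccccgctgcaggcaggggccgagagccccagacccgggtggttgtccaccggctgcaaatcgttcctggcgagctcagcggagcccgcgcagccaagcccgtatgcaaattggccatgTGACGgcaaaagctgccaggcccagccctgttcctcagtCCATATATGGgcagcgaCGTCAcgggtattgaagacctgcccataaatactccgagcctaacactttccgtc
Nr4a1: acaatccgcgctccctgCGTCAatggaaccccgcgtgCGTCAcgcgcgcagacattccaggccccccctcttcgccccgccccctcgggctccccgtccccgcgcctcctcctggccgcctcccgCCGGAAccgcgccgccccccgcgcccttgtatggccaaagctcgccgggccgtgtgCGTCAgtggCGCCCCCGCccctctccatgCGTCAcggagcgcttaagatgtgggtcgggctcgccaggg
Fos: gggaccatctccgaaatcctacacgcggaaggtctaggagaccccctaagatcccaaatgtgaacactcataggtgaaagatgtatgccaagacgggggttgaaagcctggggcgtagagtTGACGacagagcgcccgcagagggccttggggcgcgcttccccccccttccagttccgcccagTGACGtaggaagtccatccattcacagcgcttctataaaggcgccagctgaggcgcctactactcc
Npas4: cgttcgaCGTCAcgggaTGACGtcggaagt

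The printed Egr2 window held a CArG box from position -72 to -63, counted back from its start site, and 2 CRE cores. Egr2 had further RefSeq windows with other contents. That at chr10:67535249-67535498 held no CArG box and no CRE core. That at chr10:67537316-67537565 held a CArG box, 3 ETS sites and no CRE core. The Nr4a1 window held 4 CRE cores, 1 EGR site from -60 to -52 and 1 ETS site, and no CArG box. The Npas4 stretch held 2 CRE cores, 1 on each strand, and the Fos window held 2 on the same strand, 1 of them from -66 to -62. Among the 32817 promoter windows of the same length, 17.7% held a CRE core, 1.47% a CArG box, 4.70% the EGR site and 12.0% the ETS site. These are matches of letters within the windows, and no binding was measured.

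The vehicle libraries held 35838342 and 26564059 counts and the DCA libraries 32102232 and 244165712, so DCA replicate 2 was by far the deepest. A count of 0 allows up to 3 counts, equal to 0.0821 and 0.115 CPM for vehicle replicates 1 and 2 and to 0.0929 and 0.0125 CPM for DCA replicates 1 and 2, a limit that covers counting error only. Of the 11 ILC2 markers, 11 exceeded 1 CPM in a library, and their summed CPM was 13954 to 15451 with vehicle and 15863 to 18330 with DCA. The higher DCA sum came mainly from Il5 (8867 and 7727 CPM under vehicle against 9963 and 12334 CPM under DCA). Il7r was also higher in both DCA libraries (374 and 351 CPM against 583 and 461 CPM). Klrg1 (688 and 678 CPM against 463 and 356 CPM), Il1rl1 (833 and 877 CPM against 599 and 533 CPM) and Areg (532 and 512 CPM against 434 and 254 CPM) were lower in both. The other ILC2 markers overlapped between treatments. Among all genes tested, both DCA libraries lay above both vehicle libraries in 18.6% and below both in 14.7%, so nothing is read from the order of these markers. T cell markers summed to 14.5 to 25.6 CPM with vehicle and 11.2 to 21.7 CPM with DCA, with Cd4 and Cd8a at 0 everywhere. Mast cell and basophil markers summed to 284 to 363 CPM with vehicle and 159 to 302 CPM with DCA, mostly from Kit, with Fcer1a at 0 everywhere. Macrophage and monocyte markers summed to between 23.998 and 24.7 CPM with vehicle and 7.31 to 10.2 CPM with DCA. Nearly all of this sum was Cd68, the only 1 of the 5 genes above 1 CPM, and Csf1r was at 0 everywhere. For neurons, in which Npas4 and several EGR genes are well known, 1 of 4 markers exceeded 1 CPM, and Snap25, Syt1 and Rbfox3 were at 0 in every library. The part of other cell types in the results was not tested, and in bulk RNA fewer cells of a type and less RNA per cell cannot be told apart.

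The 10 genes did not share a direction. Egr1, Egr2 and Ier2 had DCA levels below the lower of the vehicle levels, Ier3 had DCA levels above the higher of the vehicle levels, and Nr4a1 and Myc overlapped between treatments. Npas4 was also lower with DCA by value, but its lower vehicle level was 3 counts, the counting limit, so this order is not settled. Nr4a2 was near the counting limit, and Egr3 and Nr4a3 had no count in any library. In edgeR's quasi-likelihood test with Benjamini-Hochberg adjustment, no gene of the 11184 tested passed an adjusted p of 0.05, which is 0% of them and 0 of the 7 immediate early genes tested. At an unadjusted p under 0.05 the count was 478 of all genes (4.27%) and 4 of the 7, and at an adjusted p under 0.05 in DESeq2 it was 126 of all genes (1.13%) and 3 of the 7 (Egr1, Egr2 and Npas4). Both DCA libraries lay below both vehicle libraries in 14.7% of all genes tested and in 4 of the 7 (counting Npas4 by value), and above both in 18.6% of all genes and in 1 of the 7. Because the 10 genes were selected on this contrast, nothing is read from these counts.

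**Figure D1:**
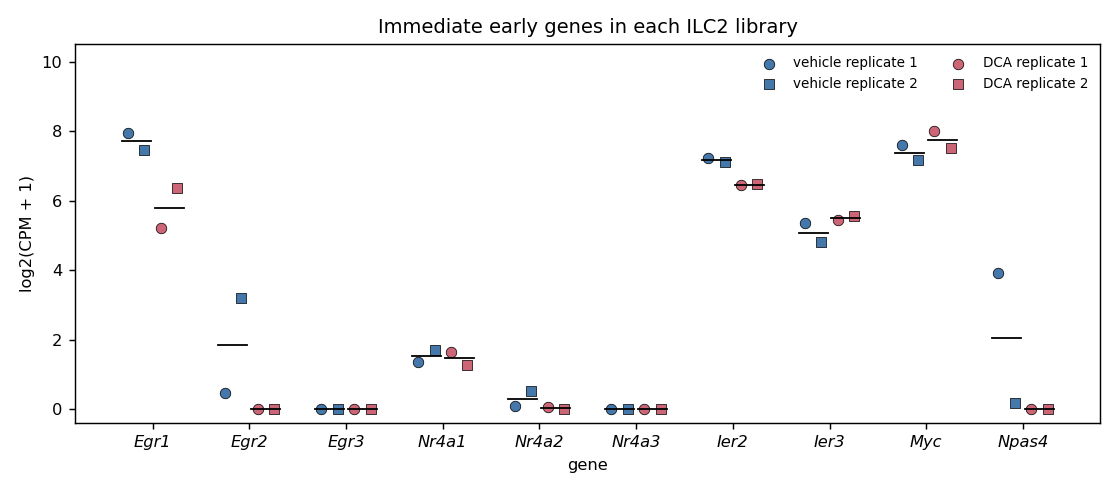
Level of each of the 10 genes as log2(CPM + 1) (y axis) in the 4 libraries, with circles for replicate 1, squares for replicate 2, blue for vehicle and red for DCA; short lines are the mean of the 2 libraries of a treatment. Egr1 and Ier2 sit lower with DCA, Egr2 and Npas4 lie at 0 with DCA and differ widely between the vehicle libraries, and Nr4a1 and Myc overlap.

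Per length of exon, the genes differed by orders of magnitude in the vehicle libraries. Ier2 stood highest, at 97.3 and 91.0 CPM per kilobase with vehicle replicates 1 and 2, above Myc at 79.0 and 58.6 and Egr1 at 55.6 and 39.1. Ier3 followed at 35.3 and 24.02 CPM per kilobase. These 4 genes were in the same order in both vehicle libraries, and no neighbors in the order overlapped. The rest were far lower. Nr4a1 was at 0.572 and 0.827 CPM per kilobase, Npas4 at 3.90 and 0.0317, Egr2 at 0.120 and 2.55, and Nr4a2 at 0.0146 and 0.112. Npas4 was above Nr4a1 and Egr2 in vehicle replicate 1 and below both in vehicle replicate 2, so the order of these 3 is not settled by 2 libraries.

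With DCA the order at the top was different. Myc led at 105 and 74.1 CPM per kilobase in DCA replicates 1 and 2, above Ier2 at 56.7 and 57.6 and Ier3 at 37.7 and 40.7. Egr1 came after these 3 genes at 8.14 and 18.2 CPM per kilobase. No neighbors among these 4 overlapped either. Nr4a1 was at 0.797 and 0.533 CPM per kilobase. These are levels per kilobase of exon, and all values that follow are CPM, not divided by length.

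Egr1 encodes a zinc finger factor that is induced by MAP kinase signaling through SRF and ETS factors. It had 9120 and 4588 counts in vehicle replicates 1 and 2 and 1179 and 19607 in DCA replicates 1 and 2, the last from a far deeper library. Scaled to library size this was 249 and 175 CPM under vehicle against 36.5 and 81.6 CPM under DCA. Both DCA libraries lay below both vehicle libraries, and the DCA libraries differed from each other more than the vehicle libraries did. The means were 212 ± 52.4 CPM (SD, n = 2) with vehicle and 59.0 ± 31.9 CPM (SD, n = 2) with DCA. The log2 fold change was -1.85 (SE 0.62 on the log2(CPM + 1) scale). Leaving out 1 library at a time gave -2.54 without DCA replicate 2 to -1.38 without DCA replicate 1.

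The DCA libraries were 1.14 apart in log2(CPM + 1) for Egr1, DCA replicate 1 being the lower (difference -1.14), and the vehicle libraries were 0.51 apart. Over the 7905 genes averaging 10 CPM or more, the median distance within a treatment was 0.47 for vehicle and 0.34 for DCA. Egr1 therefore had a wider DCA spread than the typical gene at such levels.

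Egr2, on chromosome 10 (67535475 to 67542188, plus strand, GRCm38), encodes a relative of EGR1 that binds the same DNA sequence and holds back T cell activation together with EGR3. It had 14 counts in vehicle replicate 1, 213 in vehicle replicate 2, and 0 in both DCA libraries. In CPM this was 0.383 and 8.14 with vehicle. Almost all of the Egr2 signal thus came from 1 vehicle library. Against a limit of 3 counts in each DCA library, Egr2 was at least 80.9-fold lower with DCA, a bound that was 7.27 when computed from vehicle replicate 1 alone and 154.5 from vehicle replicate 2 alone. Egr3, on chromosome 14 (70077203 to 70082614, plus strand), had 0 counts in all 4 libraries, so no direction can be given for the family as a whole.

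A drop from such a level to the counting limit also occurred between libraries of the same treatment. Of the 1415 genes within 1.5-fold of the Egr2 level in vehicle replicate 2, 96 (6.78%) had at most 3 counts in vehicle replicate 1. Between the DCA libraries, 13 of 1476 such genes in DCA replicate 1 (0.881%) had at most 3 counts in DCA replicate 2, and 44 of 1491 in DCA replicate 2 (2.95%) had at most 3 in DCA replicate 1. Among all genes, tested or not, 10992 had a count in both vehicle libraries. A count of 0 in both DCA libraries was found for 130 of them (1.18%), and Egr2 and Npas4 were among these.

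The NR4A receptors are nuclear receptors that act without a known activating hormone, bind DNA alone or with RXR, and mark recent antigen receptor signaling in T cells. Nr4a1 (chromosome 15, 101254269 to 101274795, plus strand), also known as Nur77, had 56, 58, 69 and 343 counts in vehicle replicates 1 and 2 and DCA replicates 1 and 2. In CPM it was at 1.53 and 2.22 with vehicle and at 2.14 and 1.43 with DCA. The treatments overlapped. The log2 fold change was -0.074 (SE 0.25), and leaving out 1 library at a time moved it between -0.40 (DCA replicate 1 left out) and 0.22 (vehicle replicate 2 left out), so its direction depended on the libraries used.

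Nr4a2 (chromosome 2, 57106830 to 57124003, minus strand), or Nurr1, had 2 and 11 counts in the vehicle libraries against 1 and 0 under DCA. At 0.0547, 0.420, 0.0310 and 0 CPM it was below the level for testing, and only vehicle replicate 2 was above the limit of 3 counts. No fold change is given for it. Nr4a3 (chromosome 4, 48045153 to 48086447, plus strand), or Nor1, had 0 counts in every library. Of the 3 receptor genes, Nr4a1 was thus the only one detected above 1 CPM.

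Ier2 (chromosome 8, 84661331 to 84662852, minus strand) has a single exon and encodes a nuclear early response protein. It was at 148 and 139 CPM under vehicle against 86.3 and 87.7 CPM under DCA, from 5416, 3625, 2788 and 21081 counts. Libraries of the same treatment lay close together, and the treatments were clearly apart. The means were 143 ± 6.80 CPM (SD, n = 2) and 87.0 ± 0.979 CPM (SD, n = 2). The log2 fold change was -0.72 (SE 0.049), and it stayed between -0.77 and -0.70 when each library was left out in turn. Among the 5 genes with a fold change in every such fit, Ier2 moved the least.

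Ier3 (chromosome 17, 35821684 to 35822923, plus strand), also called IEX-1, is induced by NF-κB and stress and affects cell survival. It was at 40.0 and 27.2 CPM under vehicle against 42.6 and 46.0 CPM under DCA, from 1461, 711, 1376 and 11058 counts. The DCA levels exceeded the vehicle levels in all libraries, but DCA replicate 1 was close to vehicle replicate 1. The means were 33.6 ± 9.05 CPM and 44.3 ± 2.41 CPM (SD, n = 2 each), a log2 fold change of 0.40 (SE 0.28). It was 0.15 with vehicle replicate 2 left out and 0.68 with vehicle replicate 1 left out.

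Myc (chromosome 15, 61985391 to 61990374, plus strand) was at 193 and 143 CPM under vehicle against 258 and 181 CPM under DCA, from 7071, 3752, 8335 and 43571 counts. Vehicle replicate 1 was above DCA replicate 2, so the treatments overlapped. The means were 168 ± 35.4 CPM and 220 ± 54.3 CPM (SD, n = 2 each), and the log2 fold change was 0.38 (SE 0.33). It ranged from 0.10 without DCA replicate 1 to 0.62 without DCA replicate 2. Libraries of the same treatment were 0.43 (vehicle) and 0.51 (DCA) apart in log2(CPM + 1), both more than the fitted difference between treatments.

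Npas4 (chromosome 19, 4984355 to 4990316, minus strand) encodes a bHLH-PAS factor that is best known from neurons, where it is induced by calcium influx. It had 516 counts in vehicle replicate 1, 3 in vehicle replicate 2, and 0 in both DCA libraries. This was 14.1 CPM in vehicle replicate 1 and 0.115 CPM, the counting limit, in vehicle replicate 2. A single library therefore carried the Npas4 signal. The mean was at least 135-fold lower with DCA, but vehicle replicate 2 alone gave no fold, and vehicle replicate 1 alone gave at least 268-fold. Within the vehicle treatment, 81 of the 1754 genes within 1.5-fold of the Npas4 level in vehicle replicate 1 (4.62%) also had at most 3 counts in vehicle replicate 2.

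Npas4 and Egr2 were high in different vehicle libraries. Npas4 was 3.76 higher in log2(CPM + 1) in vehicle replicate 1 than in vehicle replicate 2, whereas Egr2 was lower in vehicle replicate 1 by a difference of -2.72. Egr1, Ier2, Ier3 and Myc were also higher in vehicle replicate 1, and Nr4a1 was higher in vehicle replicate 2.

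**Figure D2:**
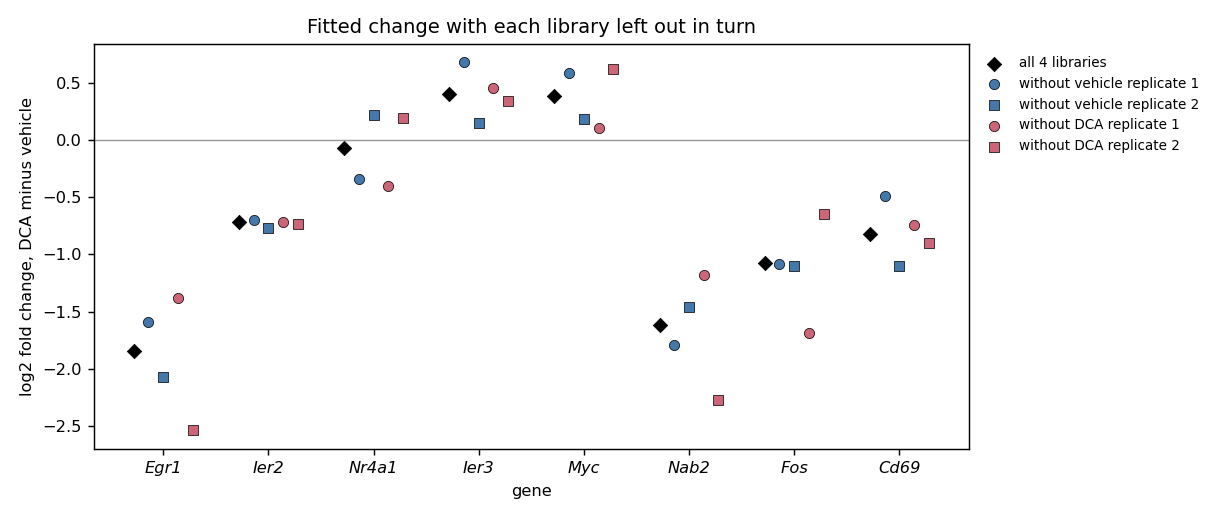
Fitted log2 fold change of DCA minus vehicle (y axis) for 5 of the 10 genes and 3 related genes, with all 4 libraries (black diamonds) and with each library left out in turn (blue for vehicle, red for DCA, circles for replicate 1, squares for replicate 2). Ier2 stays between -0.77 and -0.70, Egr1 spreads from -2.54 to -1.38, and Nr4a1 lies on both sides of 0.

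Similarity of pattern was measured as the Euclidean distance between log2(CPM + 1) values centered on their mean over the 4 libraries, with at least 10 CPM on average for the other gene (5 CPM for Npas4). Closest to Egr1 among 7884 genes were Crebzf at a distance of 0.19, Polrmt at 0.20 and Nemp2 at 0.32. Crebzf, for example, was at 29.2 and 23.0 CPM under vehicle against 4.30 and 9.23 CPM under DCA. Nr4a1 was closest to Rnf187 (0.045), Coa8 (0.048) and Cluap1 (0.049), genes that also overlapped between treatments, and Myc to Asb6 (0.074), Sesn3 (0.081) and Wsb1 (0.10). Npas4 had no close neighbor among 9059 genes. Its nearest were Dcaf6 at 0.97, Calcoco1 at 1.16 and Ms4a6b at 1.18, which were likewise highest in vehicle replicate 1. All of these distances rest on 4 libraries. The neighbors were chosen by these same values, so a shared pattern follows from the choice.

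Among the 8 of the 10 genes with a count, Nr4a1 and Nr4a2 were closest by the same measure, at 0.32. Both were at low levels, where log2(CPM + 1) values differ little. Ier3 and Myc were 0.44 apart, and Egr2 and Npas4 were the farthest apart at 4.59. Egr1 was closer to Ier2 (1.47) than to Egr2 (2.42).

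The genes around these factors were taken from lists of binding partners, regulators and targets. The lists were chosen with earlier results of these data known. Their counts and the unadjusted p-values of their genes are therefore given as a description only. Of 128 genes listed, 110 were tested, and none passed an adjusted p of 0.05 in edgeR's quasi-likelihood test. At an unadjusted p under 0.05 there were 7 of the 110 (against 4.27% of all genes), with 3 higher and 4 lower with DCA, and 1 of the 110 (Rxrg, against 1.13% of all genes) passed an adjusted p of 0.05 in DESeq2. Both DCA libraries lay below both vehicle libraries in 14 of the 110 (12.7%, against 14.7% of all genes) and above in 18 (16.4%, against 18.6%). Each gene named from them had an adjusted p of 0.999 in edgeR's quasi-likelihood test, unless it was below the level for testing.

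NAB1 and NAB2 bind EGR factors and repress their activity, and Nab2 is itself a target gene of EGR1. Nab2 was at 24.3 and 29.997 CPM under vehicle against 5.60 and 12.0 CPM under DCA, so that the treatments did not overlap and DCA replicate 1 was the lowest, as for Egr1. Its log2 fold change was -1.62 (SE 0.51, unadjusted p = 0.0367 in edgeR), from -2.27 without DCA replicate 2 to -1.18 without DCA replicate 1. Nab1, at 16.6 and 15.9 CPM under vehicle against 11.7 and 24.4 CPM under DCA, overlapped between treatments. Egr4, the remaining EGR gene, had 0 counts in every library.

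The list of EGR target genes in lymphocytes, which also holds Nab2, had 7 of 11 genes tested. Of these, 3 had a positive and 4 a negative log2 fold change, with a median of -0.0095 against 0.0080 for all genes tested. The median was 0.13 without vehicle replicate 2, 0.37 without DCA replicate 2, and 0.29 with the replicate number as a block. Nfil3, a transcription factor needed for ILC development, was at 101 and 103 CPM under vehicle against 221 and 139 CPM under DCA. The DCA levels exceeded the vehicle levels in all libraries, with a log2 fold change of 0.82 (unadjusted p = 0.0326 in edgeR) that lay between 0.44 (DCA replicate 1 left out) and 1.12 (DCA replicate 2 left out). Nab2 and Nfil3, the 2 genes of this list with the smallest unadjusted p, thus differed in direction.

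RXR receptors are the DNA-binding partners of NR4A1 and NR4A2. Rxrg was at 0 in both vehicle libraries and at 9.13 and 5.98 CPM in the DCA libraries. This was at least 76.8-fold higher, a bound of 92.8 from DCA replicate 1 and 60.8 from DCA replicate 2. The share of all genes with this pattern was not counted. For genes within 1.5-fold of 8.14 CPM in vehicle replicate 1, 10.7% had at most 3 counts in vehicle replicate 2. In the other direction it was 6.78%. Rxra was at 2.84 and 0 CPM under vehicle against 10.2 and 2.06 CPM under DCA, which overlap. Rxrb was at 37.0 and 18.1 CPM under vehicle against 23.6 and 14.9 CPM under DCA. The 3 RXR genes did not share a direction.

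Of genes linked to NR4A receptors in lymphocytes, 7 of 8 were tested, 4 with a positive and 3 with a negative log2 fold change. Il2ra, which encodes the high-affinity IL-2 receptor chain, was at 1075 and 1231 CPM under vehicle against 1615 and 1585 CPM under DCA. The treatments did not overlap, and the log2 fold change was 0.47 (SE 0.099, unadjusted p = 0.0459 in edgeR). The unadjusted p in edgeR was 0.0613 with median-of-ratios scaling, 0.0535 for genes averaging 5 CPM or more, and 0.108 without a filter on low counts. At the ends of the list among genes of at least 10 CPM were Tox, a factor of ILC development and T cell exhaustion, with a log2 fold change of 0.57, and Havcr2, which encodes the inhibitory receptor TIM-3, with -0.38. The list median was 0.47, but 0.92 without vehicle replicate 1, 0.21 without vehicle replicate 2, 0.14 without DCA replicate 1, and 0.12 over genes averaging 5 CPM or more.

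The ARNT proteins pair with NPAS4 to bind DNA. Arnt was at 13.2 and 21.3 CPM under vehicle against 23.6 and 26.6 CPM under DCA, both DCA libraries being higher (log2 fold change 0.54). Arnt2 was at 4.65 and 7.38 CPM under vehicle against 1.80 and 11.2 CPM under DCA, with no separation of treatments. Both partner genes were therefore detected in the DCA libraries, in which Npas4 had no count.

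**Figure D3:**
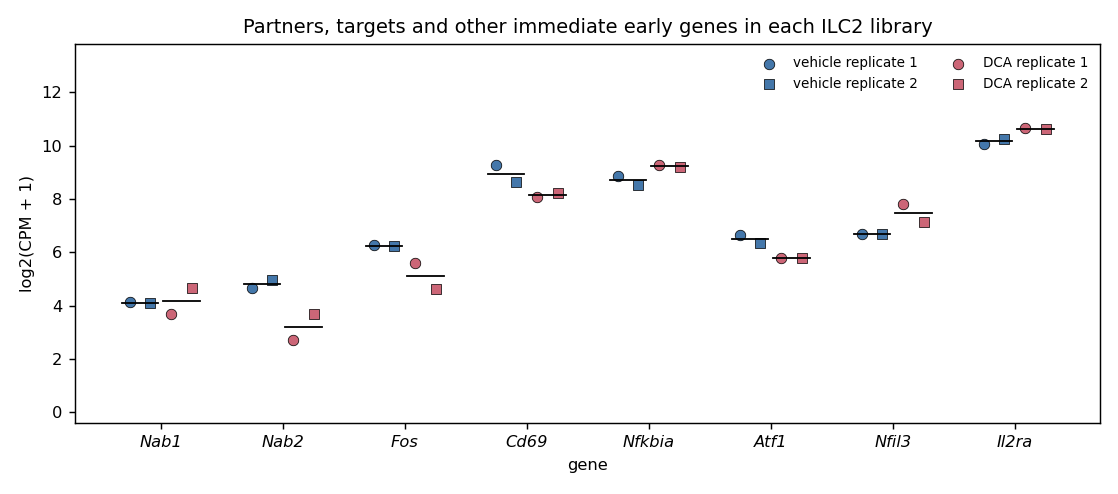
Level of genes that act with, upstream of or downstream of the immediate early factors, as log2(CPM + 1) (y axis) in the 4 libraries, with circles for replicate 1, squares for replicate 2, blue for vehicle and red for DCA; short lines are the mean of the 2 libraries of a treatment. Nab2, Fos, Cd69 and Atf1 lie lower in both DCA libraries, Nfkbia, Nfil3 and Il2ra lie higher in both, and Nab1 overlaps. Apart from Nab1, these genes were picked by an unadjusted p under 0.05 in edgeR or as the end of a list. Of the 110 tested list genes, 12.7% lay lower in both DCA libraries and 16.4% higher, against 14.7% and 18.6% of all genes.

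MYC binds DNA with MAX and competes there with MXD, MNT and MGA proteins. Of this network, 10 of 11 genes were tested, 7 with a positive and 3 with a negative log2 fold change (median 0.20), and in 3 the DCA levels exceeded all vehicle levels (30%, against 18.6% of all genes), and in 0 they were below (against 14.7%). The median was 0.47 without vehicle replicate 1 and 0.090 without vehicle replicate 2. Max overlapped between treatments, at 21.2 and 12.0 CPM under vehicle against 12.8 and 21.2 CPM under DCA. Among genes of at least 10 CPM, Mga was at the upper end (0.58) and Mxd3 at the lower end (-0.66).

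MYC target genes, mostly of ribosome production, nucleotide and polyamine synthesis, were all tested (22 of 22). Their log2 fold changes had a median of -0.089 (5 genes positive, 17 negative), and the range was narrow, from -0.53 for Npm1, a nucleolar chaperone, to 0.27 for Ddx21, a nucleolar helicase. Npm1 was at 1230 and 1990 CPM under vehicle against 948 and 1283 CPM under DCA, which overlap. In 3 of the 22 both DCA libraries were below both vehicle libraries (13.6%, against 14.7% of all genes) and in 2 above (9.09%, against 18.6%). The median was 0.0072 without vehicle replicate 2.

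The regulators that switch on immediate early genes were present. Srf was at 23.9 and 15.2 CPM under vehicle against 18.1 and 20.8 CPM under DCA, with overlap. Of the SRF, CREB and MEF2 group, 14 of 15 genes were tested, 5 with a positive and 9 with a negative log2 fold change (median -0.21, but 0.041 without vehicle replicate 1). Atf1, a CREB family factor that binds the CRE, was at 99.3 and 79.9 CPM under vehicle against 53.9 and 54.1 CPM under DCA, a log2 fold change of -0.73 (SE 0.16, unadjusted p = 0.0428 in edgeR) with no overlap. Creb1 stood at the upper end (0.68) and Mrtfa, a coactivator of SRF, at the lower end (-1.56), with Mrtfa at 46.4 CPM in vehicle replicate 1 against 10.9 CPM in vehicle replicate 2 and 12.6 and 6.90 CPM with DCA.

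The MAP kinase genes that lead to these regulators were all tested (11 of 11), 4 with a positive and 7 with a negative log2 fold change. Their median was -0.13, and it was 0.039 without DCA replicate 1. Mapk3, or ERK1, was at the upper end (0.69) and Rps6ka5, or MSK1, a kinase of CREB and histone H3, at the lower end (-0.97).

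Other immediate early genes, outside the 10, were listed separately, also with earlier results known. Of 35 listed, 27 were tested, 8 with a positive and 19 with a negative log2 fold change, with a median of -0.25 against 0.0080 for all genes tested. Both DCA libraries were below both vehicle libraries in 6 of the 27 (22.2%, against 14.7% of all genes) and above in 4 (14.8%, against 18.6%). The median rested on vehicle replicate 1, without which it was 0.17.

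Fos, a subunit of AP-1, was at 76.1 and 74.0 CPM under vehicle against 47.7 and 23.4 CPM under DCA. The vehicle libraries were nearly equal, and both DCA libraries were lower, with a log2 fold change of -1.08 (SE 0.50, unadjusted p = 0.0407 in edgeR) that lay between -1.68 (DCA replicate 1 left out) and -0.65 (DCA replicate 2 left out). DCA replicate 2 was the lower of the DCA libraries for Fos, whereas DCA replicate 1 was the lower for Egr1. Cd69, an early activation marker that holds lymphocytes in tissue, was at 613 and 394 CPM under vehicle against 269 and 301 CPM under DCA, a log2 fold change of -0.82 (SE 0.33, unadjusted p = 0.0231 in edgeR) that was -0.49 without vehicle replicate 1. Nfkbia, which encodes the NF-κB inhibitor IκBα, was at the other end, at 468 and 371 CPM under vehicle against 626 and 584 CPM under DCA (log2 fold change 0.53). Fos and Cd69 thus lay on the same side as Egr1 and Ier2, and Nfkbia on the same side as Ier3.

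Heat shock genes, a further group of quickly induced genes, had 6 of 8 members tested, and in 0 of the 6 were the treatments apart (against 14.7% of all genes with DCA below and 18.6% with DCA above). Their median log2 fold change was 0.084, between -0.19 for Dnajb1 and 0.40 for Bag3, and leaving out DCA replicate 2 gave -0.17, leaving out DCA replicate 1 gave 0.26.

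**Figure D4:**
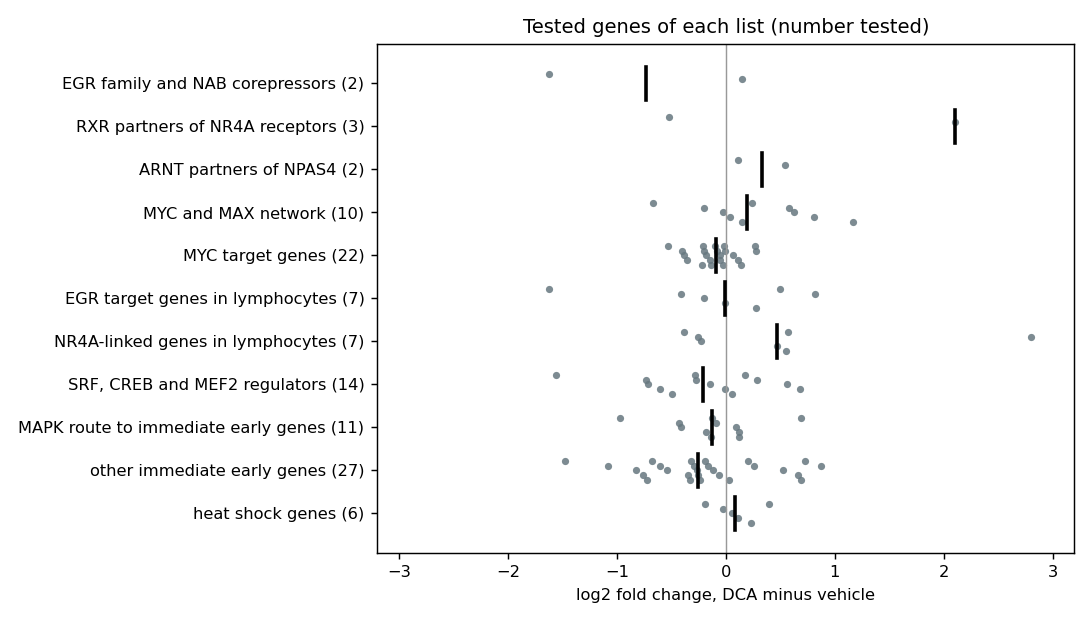
Log2 fold change of DCA minus vehicle (x axis) for each tested gene of the partner, regulator and target lists, 1 point per gene, with a black line at the list median and the number tested in parentheses. Rxrg lies outside the axis and is not drawn. The MYC targets lie close to 0, and the other immediate early genes spread to both sides with a median of -0.25.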

How the data were processed

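RNA-Seq libraries of vehicle-treated (2) and DCA-treated (2) ILC2s were made by the authors from full-length cDNA (SMART-Seq HT). The submitters' processing notes name Cutadapt 1.9, HISAT2 2.2.1 and mm10. The counting tool and strand setting are not given in the sources used here. The deposited table is named for FPKM but holds whole-number counts per gene by Entrez identifier. Counts were analysed in R 4.3.3 with edgeR 4.0.16 (TMM scaling and a two-sided quasi-likelihood test). Benjamini-Hochberg adjustment ran across 11184 genes averaging 1 CPM or more. The procedure was run on simulated counts, where recovery of changed genes was required only at a small spread, not at that of these libraries. DESeq2 1.42.0, other scalings and filters, a replicate block and leaving out each library were alternatives. Standard errors come from log2(CPM + 1). A group with 0 counts in both libraries was set to 3 counts in each, making the fold a bound. The smallest two-sided exact permutation p for 2 against 2 libraries is 0.333. Exon lengths and gene positions are from GENCODE vM21 (basic, GRCm38), in which none of the 10 genes overlaps another, and promoter windows are from RefSeq (GRCm38.p6). The 10 genes and all lists were chosen with earlier results of these data known. From the lists, the text names genes with an unadjusted p under 0.05, the genes of at least 10 CPM with the highest and lowest log2 fold change, all EGR, NAB, RXR and ARNT genes, and 2 genes chosen after their values were seen (Max and Srf).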

Additional observations from a re-analysis of the deposited data

How the results depend on the processing

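With 2 libraries per treatment and no known separate cultures, the adjusted p-values measure the spread between these libraries only. No gene passed an adjusted p of 0.05 in edgeR with TMM, with either other scaling or at a mean of at least 5 CPM. Without a filter on low counts 36 of 17706 genes passed (24 higher and 12 lower with DCA), among them 2 of 8 of the immediate early genes (Egr1 and Npas4). In DESeq2 126 of 11184 passed (85 higher and 41 lower), among them 3 of 7 (Egr1, Egr2 and Npas4). The DESeq2 genes included 1 of the partner, regulator and target genes (Rxrg, against 0 in edgeR). Nothing is read from the immediate early gene counts, as these genes were selected on this contrast. Leaving out each library gave 0 to 20 genes, the 20 without vehicle replicate 1. The median of the other immediate early genes lay between -0.45 and 0.17 when each library was left out, being 0.17 without vehicle replicate 1. Replicate numbers are not stated to pair the libraries. Deviations of same-numbered libraries correlated at 0.0197 over 11184 genes, which cannot decide whether they shared a culture or mouse. With a replicate block 0 genes passed, and 450 had an unadjusted p under 0.05 against 478 without it. The log2 fold change of Egr1 lay between -1.94 and -1.84 and that of Ier2 between -0.75 and -0.72 over the other scalings, filters, DESeq2 and the block. Cause was not tested for any of these differences. Egr2 and Npas4 are limited by the difference between the vehicle libraries (14 and 213 counts for Egr2, 516 and 3 for Npas4). Nr4a2 is limited by counts near the limit of 3, which is 0.115 CPM in the shallowest library.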
